A study of Homo sapiens with 3 samples.

Results

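PIM1, PIM2 and PIM3, the 3 members of the PIM kinase family, were taken by their symbols from 43913 genes measured by Drop-seq, a droplet method that tags the RNA of single cells on beads and counts molecules as unique molecular identifiers (UMIs). There were 3 libraries: MM.1S in monoculture, HS-5 in monoculture, and a coculture of both lines. MM.1S is an established human multiple myeloma line, and HS-5 is an established human bone marrow stromal line. The lines were kept together for 4 h by the labels, a time from which figure legends of the study differ. No treatment was added, and each condition is 1 library, so no difference below has a replicate check, no test was made, and all 95% intervals cover counting error only. The coculture's cells were not sorted: each was given to MM.1S or HS-5 by its UMIs of genes at least 50-fold different between the monocultures (62 MM.1S genes and 164 HS-5 genes), and 106 cells with a mixed profile were left out. PIM2 itself met the 50-fold limit and was kept out of these genes, so that no PIM UMI decided the line of a cell. The family was chosen because PIM1 and PIM2 were lower in MM.1S cells in coculture while other targets of the transcription factor STAT3 were higher, so these levels are a description and support nothing.

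PIM kinases are serine/threonine kinases that are active as soon as they are made, so their activity follows largely from how much mRNA and protein a cell holds. Their mRNAs are short-lived and are induced by cytokines such as IL-6 through JAK kinases and STAT3, and by NF-κB. They favour survival, translation and cell cycle entry by phosphorylating proteins such as BAD and CDC25A, and PIM2 in particular is known as a kinase of plasma cells and myeloma.

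The 4 cell groups were MM.1S cells in monoculture (3947 cells, 10433017 UMIs, median 2201 UMIs per cell), MM.1S cells in coculture (1647 cells, 1331298 UMIs, median 669), HS-5 cells in monoculture (3732 cells, 6142273 UMIs, median 971.5) and HS-5 cells in coculture (2103 cells, 2475789 UMIs, median 957). The summed level of 14 plasma cell markers was 12220 and 9541 counts per 1000000 UMIs (CPM) in MM.1S cells in monoculture and coculture against 360 and 363 CPM in HS-5 cells, and that of 15 stromal markers was 20234 and 19489 CPM in HS-5 cells against 3139 and 3934 CPM in MM.1S cells. In the coculture this separation was fixed in part by the assignment, since 5 of the plasma cell and 8 of the stromal markers are among the genes that assigned the cells. Single markers went against the sums: FN1 (fibronectin) stood at 810 and 2226 CPM in MM.1S cells against 252 and 280 CPM in HS-5 cells, CAV1 at 457 against 356 CPM in the monocultures, and SDC1, the plasma cell marker syndecan-1, at 38.1 CPM in MM.1S against 135 CPM in HS-5 monoculture. Of 12 markers of other cells, 10 were in the tables and summed to between 9.29 and 102 CPM. Free RNA of the other line made up 1.58% of the UMIs in MM.1S droplets and 0.708% in HS-5 droplets of the coculture, and between 39 and 76 barcodes occurred in both of any 2 libraries. Mitochondrial genes held 6.82% of MM.1S UMIs in monoculture and 4.05% in coculture, and 2.79% and 2.23% of HS-5 UMIs. The coculture library and the coculture itself cannot be told apart in this design.

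PIM2, the family member best known from plasma cells, was a transcript of the myeloma line. It stood at 387 CPM in MM.1S monoculture cells (95% Poisson interval 375 to 399, 4039 UMIs), 248 CPM in MM.1S cells in coculture (222 to 276, 330 UMIs), 3.74 CPM in HS-5 monoculture cells (2.37 to 5.62, 23 UMIs) and 4.04 CPM in coculture HS-5 cells (1.94 to 7.43, 10 UMIs). Both MM.1S groups were far above both HS-5 groups, and the intervals of the HS-5 groups overlapped. In monoculture the level in MM.1S cells was 103-fold that in HS-5 cells (68.8 to 163). Subtraction of the free MM.1S RNA left 2.30 CPM in HS-5 cells in coculture.

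PIM1, the founding member of the family, was also mainly an MM.1S transcript in monoculture, but not in coculture. It stood at 51.4 CPM in MM.1S monoculture cells (47.1 to 55.9, 536 UMIs), 22.5 CPM in MM.1S cells in coculture (15.2 to 32.2, 30 UMIs), 4.88 CPM in HS-5 monoculture cells (3.30 to 6.97, 30 UMIs) and 17.0 CPM in coculture HS-5 cells (12.2 to 22.9, 42 UMIs). The monocultures were the extremes, with a 10.5-fold higher level in MM.1S cells (7.28 to 15.7), and the coculture groups lay between them with overlapping intervals. In coculture the MM.1S level was 1.33-fold the HS-5 level (0.803 to 2.17), so a difference between the lines was not detectable there at this depth.

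PIM3, a kinase found in many epithelial and mesenchymal tissues, was shared by the lines. It stood at 49.7 CPM in MM.1S monoculture cells (45.6 to 54.2, 519 UMIs), 108 CPM in MM.1S cells in coculture (91.2 to 127, 144 UMIs), 59.1 CPM in HS-5 monoculture cells (53.2 to 65.5, 363 UMIs) and 40.0 CPM in coculture HS-5 cells (32.5 to 48.7, 99 UMIs). MM.1S cells in coculture stood above the other groups, and the MM.1S monoculture interval overlapped those of both HS-5 groups. The HS-5 level was 1.19-fold the MM.1S level in monoculture (1.04 to 1.36), and the MM.1S level was 2.70-fold the HS-5 level in coculture (2.08 to 3.53). PIM3 was thus only slightly higher in the stromal line in monoculture, with overlapping CPM intervals, and higher in the myeloma line in coculture.

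In the annotation (GRCh38, GENCODE release 29) PIM1 (ENSG00000137193.13) lies on the plus strand of chromosome 6 at 37170203 to 37175426, PIM2 (ENSG00000102096.9) on the minus strand of chromosome X at 48913182 to 48919024, and PIM3 (ENSG00000198355.4) on the plus strand of chromosome 22 at 49960513 to 49964080, where the microRNA gene MIR6821 overlaps it. Counts were summed over whole genes, so a PIM3 UMI cannot be told apart from one of its overlapping microRNA gene's primary transcript. The 250 bases before the RefSeq start site of the genes that were lower in MM.1S cells are shown 5′ to 3′ on the gene's strand, PIM2 at chrX:48919025-48919274 (minus strand) and PIM1 at chr6:37169902-37170151 (plus strand) of GRCh38.p14, with matches to the octamer ATGCAAAT, the B cell motif of the OCT factors, in capitals on either strand.
PIM2: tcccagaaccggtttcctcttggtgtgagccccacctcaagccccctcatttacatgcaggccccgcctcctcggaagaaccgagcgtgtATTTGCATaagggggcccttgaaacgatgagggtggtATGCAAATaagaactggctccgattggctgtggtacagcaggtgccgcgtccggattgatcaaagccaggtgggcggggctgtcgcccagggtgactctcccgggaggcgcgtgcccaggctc
PIM1: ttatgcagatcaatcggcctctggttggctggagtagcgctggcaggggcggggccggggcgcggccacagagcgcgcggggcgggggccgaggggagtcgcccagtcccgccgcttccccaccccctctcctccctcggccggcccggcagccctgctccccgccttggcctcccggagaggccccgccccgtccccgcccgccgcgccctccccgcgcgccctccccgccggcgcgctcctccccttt
The PIM2 sequence held 2 octamers, which start 160 and 123 bases before the start site, and those of PIM1 and PIM3 held 0. Among 27305 RefSeq promoters of the same length, 1.66% held at least 1 octamer and 0.0439% at least 2. The octamer was searched for after the sequences had been seen. The STAT motif TTCNNNGAA, held by 6.78% of promoters, and the NF-κB consensus, held by 9.57%, matched none of the 3 windows, and CCAAT, held by 33.0%, matched that of PIM2 only, 1 time, 101 bases before the start site and apart from the octamers. These matches describe letters and say nothing of binding.

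To compare coculture with monoculture, log2 ratios were taken with a pseudocount of 1 CPM in genes whose levels averaged 10 CPM or more, and a difference of 1.5-fold was called. The folds of the members and all intervals are given without the pseudocount. In MM.1S cells PIM1 had a log2 ratio of -1.15 (95% interval of the ratio -1.77 to -0.66) and was 2.28-fold lower without the pseudocount. PIM2 had -0.64 (-0.81 to -0.48), 1.56-fold lower, and PIM3 had 1.11 (0.84 to 1.39), 2.17-fold higher. The family therefore split within the myeloma line, with 2 of 3 members lower and 1 of 3 higher, where 13.9% of the 7837 genes compared were called lower and 33.6% higher. With median-of-ratios factors these shares were 22.5% and 23.5% of 7537 genes. Since the members were chosen on this contrast, nothing is read from these counts.

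In HS-5 cells the pattern was crossed. PIM1 had a log2 ratio of 1.61 (1.09 to 2.52) and was 3.47-fold higher in coculture without the pseudocount. PIM3 had -0.55 (-0.90 to -0.24), was 1.48-fold lower without the pseudocount and fell just short of the call. PIM1 reached the minimum of 10 CPM in HS-5 cells only through its coculture level. Of the 2 members that reached 10 CPM, 1 was called higher, against 7.9% of 8811 genes, and 0 were called lower, against 10%. PIM2 was under 10 CPM, and its log2 ratio of 0.09 (-1.13 to 1.24) spans both directions, so that no change was detectable at this depth. The log2 ratio in MM.1S cells minus that in HS-5 cells was -2.76 for PIM1 and 1.66 for PIM3. Both genes thus had opposite directions in the lines, and these differences were not tested.

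The median of all genes lay at a log2 ratio of 0.24 in MM.1S cells and -0.04 in HS-5 cells. Relative to it PIM1, PIM2 and PIM3 stood at -1.39, -0.88 and 0.86 in MM.1S cells, and PIM1 and PIM3 at 1.65 and -0.52 in HS-5 cells. The share of genes with a lower ratio was 4.13% for PIM1, 12.5% for PIM2 and 83.7% for PIM3 in MM.1S cells, and 99.9% for PIM1 and 11.2% for PIM3 in HS-5 cells. PIM1 lay near the lower end of all genes in MM.1S cells, the contrast it was chosen on. It lay near the upper end in HS-5 cells, where it passed the minimum only through its coculture level. Against genes of like transcript length, the ratios were -1.33, -0.57 and 1.18 in MM.1S cells, which takes PIM2 below 1.5-fold, and 1.61 and -0.59 for PIM1 and PIM3 in HS-5 cells, which takes PIM3 past it.

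The members were also described by the share of cells in which a UMI was seen. With every cell thinned to 500 UMIs, a PIM2 UMI was found in 17.6% of 3947 MM.1S monoculture cells (exact Clopper-Pearson interval 16.4 to 18.8%) and 11.1% of 1200 MM.1S cells in coculture (9.36 to 13.0%), against 0.284% of 3515 and 0.277% of 1802 HS-5 cells. A PIM1 UMI was found in 2.46% (2.00 to 2.99%) and 1.17% (0.639 to 1.95%) of MM.1S cells and in 0.370% (0.197 to 0.632%) and 0.721% (0.385 to 1.23%) of HS-5 cells. A PIM3 UMI was found in 2.58% (2.11 to 3.13%) and 4.58% (3.47 to 5.92%) of MM.1S cells and in 3.10% (2.55 to 3.73%) and 2.33% (1.68 to 3.14%) of HS-5 cells.
The HS-5 intervals of PIM1 and of PIM3 overlapped between the cultures, while those of MM.1S cells did not. Thinning left out 447 MM.1S cells and 301 HS-5 cells of the coculture, 217 HS-5 cells and 0 MM.1S cells of the monocultures. Without thinning, PIM1, PIM2 and PIM3 were seen in 11.4%, 54.0% and 11.7% of MM.1S monoculture cells and in 1.76%, 17.1% and 8.01% of the shallower MM.1S cells in coculture. For PIM3 the share without thinning therefore had the opposite order to the CPM, in cells with medians of 2201 and 669 UMIs, and no order is read from it. In HS-5 cells the shares without thinning were 0.804% and 1.90% for PIM1, 0.589% and 0.476% for PIM2 and 8.82% and 4.61% for PIM3 in monoculture and coculture. The median depths of these groups were close, but 752 of 3732 monoculture cells held 2000 or more UMIs, against 262 of 2103 in coculture. No order is read from these shares either.

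Few cells held more than 1 PIM transcript. In MM.1S monoculture cells thinned to 500 UMIs, 18 cells held both PIM1 and PIM2, where the product of the shares gives 17.0, and 17 held both PIM2 and PIM3, where it gives 17.9. The members were thus seen together about as often as the product of their shares. In MM.1S cells in coculture, 11 cells held PIM2 and PIM3, against 6.10 by the product. Any PIM transcript was seen in 21.6% of monoculture and 15.7% of coculture cells of MM.1S, and in 3.73% and 3.16% of those of HS-5. At 1000 UMIs per cell, 75 of 3870 MM.1S monoculture cells held 3 or more PIM2 UMIs and 1 of 379 did in coculture, and the variance of the PIM2 count was 1.22 times its mean in monoculture.

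Since MM.1S cells in coculture were shallower, the members were also compared at like depth. In cells of 1000 to under 2000 UMIs, PIM2 stood at 467 CPM in 1602 MM.1S monoculture cells (440 to 495) and 224 CPM in 329 in coculture (182 to 273). PIM1 stood at 52.2 CPM (43.5 to 62.1) and 27.4 CPM (14.1 to 47.8), and PIM3 at 56.7 CPM (47.7 to 67.0) and 89.0 CPM (63.3 to 122). All 3 members kept their direction at this depth, though the intervals of PIM1 and of PIM3 overlapped. PIM2 also differed with depth within a culture, from 507 CPM in MM.1S monoculture cells of 500 to under 1000 UMIs to 362 CPM in those of 2000 or more, and from 346 CPM in MM.1S coculture cells of 200 to under 500 UMIs to 112 CPM in those of 2000 or more.
In HS-5 cells of 1000 to under 2000 UMIs, PIM1 stood at 4.85 CPM in monoculture (7 UMIs) and 18.6 CPM in coculture (19 UMIs), with intervals that did not overlap. PIM3 in HS-5 cells of 500 to under 1000 UMIs stood at 79.0 CPM (64.1 to 96.4) and 39.2 CPM (24.8 to 58.8), also without overlap. PIM3 was lower in coculture in all 4 depth classes of HS-5 cells and PIM1 was higher in all 4, with overlapping intervals in the others of these classes.

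The coculture levels were also split by traces of the other line. HS-5 cells without any UMI of MM.1S genes (1437 cells) held PIM1 at 18.5 CPM (12.3 to 26.7), and those with at least 1 (666 cells) at 14.6 CPM (7.99 to 24.5). PIM1 in HS-5 cells was thus as high without MM.1S traces as with them. MM.1S cells without any UMI of HS-5 genes (664 cells) held 31.0 CPM of PIM1, 279 CPM of PIM2 and 102 CPM of PIM3, against 18.2, 232 and 111 CPM in the 983 cells with at least 1. In the MM.1S cells without such traces the log2 ratio to monoculture was -0.71 for PIM1 and -0.47 for PIM2, so that PIM2 stayed lower but was no longer called. These cells held fewer UMIs on average than those with traces, and the part of depth in these ratios was not tested. Subtraction of free RNA gave -1.15, -0.62 and 1.12 for PIM1, PIM2 and PIM3 in MM.1S cells and 1.61 and -0.57 for PIM1 and PIM3 in HS-5 cells.

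PIM1 and PIM2 are targets of STAT3, and they were compared with 27 other STAT3 targets. In MM.1S cells 23 of the 27 reached 10 CPM, of which 17 were at least 1.5-fold higher in coculture, 1 was lower and 5 lay between, against 33.6% higher and 13.9% lower over all genes. Of the 17, 8 were under 10 CPM in monoculture and passed the minimum only through their coculture level, so nothing is read from this count. The median log2 ratio was 1.53 against 0.24 over all genes. It rests in part on the same 8 genes, so nothing is read from it either. SOCS3, the feedback inhibitor of JAK-STAT signalling, went from 1.05 to 25.5 CPM (log2 ratio 3.69). IRF1, an interferon-regulated transcription factor, went from 9.20 to 122 CPM (3.59), and BCL3, an IκB family coactivator, from 1.05 to 22.5 CPM (3.52). The member of the list that was called lower was MYC, from 788 to 378 CPM (-1.06), and TIMP1 and ICAM1 had -0.39 and -0.34. PIM1 and PIM2 stood with MYC at the low end of the STAT3 targets, which follows from how the family was chosen. PIM3 lay below the targets' median. Since that median includes the 8 genes that passed only through coculture, nothing is read from the place of PIM3.
In HS-5 cells 22 of the STAT3 targets reached 10 CPM, with 1 higher (7.9% over all genes), 3 lower (10%) and a median of 0.01. SOCS3 was the higher one, at 18.7 and 28.7 CPM (0.59), and FOS, an immediate early factor, was the lowest, at 33.9 and 3.23 CPM (-3.04), followed by BCL2L1, which blocks apoptosis, at -0.89. CEBPD, a C/EBP transcription factor, was second highest at 0.45. No other STAT3 target reached the 1.61 of PIM1 in these cells. Among genes at 10 CPM or more, PIM1 stood at the low end of the STAT3 targets in MM.1S cells and above all of them in HS-5 cells. The first follows from how the family was chosen. In HS-5 cells PIM1 passed the minimum only through its coculture level, so nothing is read from either place.

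Within the coculture library, a cell's PIM level could be set against its own STAT3 target UMIs. MM.1S cells in coculture thinned to 500 UMIs with 0, 1 and at least 2 such UMIs (433, 403 and 364 cells) held PIM1 at 18.5, 24.8 and 27.5 CPM, PIM2 at 236, 223 and 291 CPM and PIM3 at 78.5, 119 and 82.4 CPM. The intervals overlapped for each member, and PIM1 rests on 4, 5 and 5 UMIs. MYC held 49.2% of the list's UMIs in MM.1S monoculture and 17.4% in coculture, so the classes partly sorted cells by MYC. Without MYC in the list the levels were 23.3, 30.1 and 14.0 CPM for PIM1 (6, 6 and 2 UMIs), 244, 246 and 260 CPM for PIM2 and 85.3, 115 and 77.2 CPM for PIM3, again with overlapping intervals, so no difference between the classes was detectable at this depth. For PIM2 the log2 ratio of cells with at least 2 over cells with 0 was 0.30 (-0.28 to 0.89), and at 1000 UMIs per cell it was 1.37 (0.07 to 3.07) in 1 random draw, with 52 UMIs in 231 cells against 5 UMIs in 58 cells, and 0.54 (-0.50 to 1.75) in another, with 49 UMIs in 228 cells against 9 UMIs in 61 cells. Without MYC in the list the ratio at 500 UMIs was 0.088 (-0.54 to 0.70). The draws thinned the same cells, so their shared sign is no separate evidence. The size of this ratio changed with the draw, and no direction is read from it. In MM.1S monoculture PIM1 stood at 51.4, 58.4 and 43.4 CPM and PIM2 at 387, 412 and 421 CPM in the same classes.

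Upstream of PIM transcription, the IL-6 family and JAK-STAT list had 12 of 25 genes at 10 CPM in MM.1S cells, with 6 higher (33.6% over all genes), 1 lower (13.9%) and a median of 0.54, which was 0.30 with median-of-ratios factors (5 higher, 1 lower). Of the 6, 2 were under 10 CPM in monoculture and passed the minimum only through their coculture level. Nothing is read from this count or from the median. IL6R, the receptor chain that binds IL-6, went from 28.4 to 213 CPM (2.87), STAT3 itself from 17.9 to 93.1 CPM (2.31), and CISH, another feedback inhibitor, from 4.70 to 31.5 CPM (2.51). JAK1, the kinase that links the IL-6 receptor to STAT3, went from 158 to 71.4 CPM (-1.14) and was the lower one, and the next lowest were IL21R, the IL-21 receptor (-0.04), and PTPN11, the phosphatase SHP2 (0.17). In HS-5 cells 15 genes reached 10 CPM, with 1 higher (SOCS3) and 1 lower (the cytokine IL11, 51.0 to 24.6 CPM, -1.02). The shares over all genes were 7.9% and 10%, and the list's median was -0.00. IL6, the main STAT3-activating cytokine of the stromal line, stood at 1209 and 1207 CPM in these cells. STAT5B had -0.46 there. Of 20 NF-κB targets, 15 reached 10 CPM in MM.1S cells, with 7 higher (33.6% over all genes), 1 lower (13.9%) and a median of 0.52, which was 0.085 with median-of-ratios factors (6 higher, 2 lower). Of the 7, 4 were under 10 CPM in monoculture, so nothing is read from this count or from the median. The highest was the chemokine CCL2 (4.22 to 104 CPM, 4.33), and the lower one was LTB, a TNF family member of lymphocytes (56.4 to 16.5 CPM, -1.71), while the 1.79 of CXCL8 became -0.034 after subtraction of free RNA. REL, an NF-κB subunit, had -0.49. In HS-5 cells 16 NF-κB targets had 1 higher (CCL2, 1.98, against 7.9% over all genes), 1 lower (BIRC3, -0.76, against 10%) and a median of -0.21. IER3 had 0.36 and NFKB1 had -0.58.

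Downstream of the kinases, 26 substrates and partners were listed. In MM.1S cells 21 reached 10 CPM, with 10 higher (33.6% over all genes), 3 lower (13.9%) and a median of 0.50, which was 0.22 with median-of-ratios factors (8 higher, 4 lower). Of the 10, 1 was under 10 CPM in monoculture. RUNX1, a transcription factor of blood cells, had 2.89, HSP90AA1, the inducible chaperone that stabilises PIM proteins, went from 540 to 3456 CPM (2.68), and CDC25A, a phosphatase that opens the cell cycle, had 2.35. The lower ones were MYC, the drug transporter ABCG2 (-0.71) and EIF4EBP1, an inhibitor of translation (-0.60). In HS-5 cells 20 of them had 2 higher (7.9% over all genes), RPS19, a ribosomal protein (0.89), and EIF4EBP1 (0.61). There were 2 lower (10%), CDC25A (-0.79) and HSP90AA1 (-0.68), and the median was 0.05. EIF4EBP1 thus had the signs of PIM1 in both lines, and CDC25A and HSP90AA1 those of PIM3.

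Of 24 short-lived mRNAs, a class that includes the PIM transcripts, 20 reached 10 CPM in MM.1S cells, with 13 higher (33.6% over all genes), 3 lower (13.9%) and a median of 1.00, which was 0.75 with median-of-ratios factors (11 higher, 3 lower). Of the 13, 2 were under 10 CPM in monoculture, so nothing is read from this count or from the median. MCL1, which blocks apoptosis, had 2.44, GADD45B, a stress response gene, 2.33 and JUNB, an AP-1 factor, 2.28. The lower ones were BTG2, which restrains proliferation, from 201 to 60.8 CPM (-1.71), MYC, and DUSP1, a phosphatase of MAP kinases (-0.85). In HS-5 cells 22 short-lived mRNAs had 0 higher (7.9% over all genes), 3 lower (10%) and a median of -0.14. The antiproliferative BTG1 (0.41) and MYC (0.38) were the highest, and FOS and KLF6, a zinc finger factor (-0.69), the lowest.

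Among 28 other survival and CAMK-group kinases, 21 reached 10 CPM in MM.1S cells, with 12 higher (33.6% over all genes), 0 lower (13.9%) and a median of 0.81, which was 0.52 with median-of-ratios factors (9 higher, 0 lower). Of the 12, 6 were under 10 CPM in monoculture, so nothing is read from this count or from the median. MAPKAPK2, a kinase activated by p38, went from 8.15 to 92.4 CPM (3.35), STK17A, a kinase of the death-associated group, from 39.0 to 171 CPM (2.11) and RPS6KA3, an S6 kinase activated by ERK, from 14.1 to 54.8 CPM (1.89). The lowest was STK17B, related to STK17A, at -0.27, followed by MAPKAPK3 (0.03) and CSNK2A1, a casein kinase 2 subunit (0.04). PIM1 and PIM2 had lower ratios in MM.1S cells than each kinase of the list at 10 CPM or more. They were chosen on this contrast, and the STK17B interval (-0.78 to 0.19) overlapped that of PIM2, so nothing is read from this order. In HS-5 cells 23 of these kinases had 0 higher (7.9% over all genes), 4 lower (10%) and a median of -0.06. DAPK3, a death-associated kinase (-1.12), and STK17B (-0.86) were the lowest, and PDPK1 (0.52) and CHEK2 (0.49) the highest. PIM1 had a higher ratio there than every one of them, but passed the minimum only through its coculture level.

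PIM levels were also set against proliferation, by each cell's UMIs of 25 mitotic genes. HS-5 cells in monoculture with 0 mitotic UMIs held PIM3 at 38.4 CPM (21.5 to 63.4) and those with at least 2 at 78.4 CPM (62.8 to 96.7), 2.04-fold higher (1.17 to 3.80). In coculture the levels were 21.5 CPM (8.65 to 44.3) and 58.0 CPM (37.9 to 85.0), 2.70-fold higher (1.14 to 7.36). PIM3 was thus higher in HS-5 cells with more mitotic UMIs in both libraries, and such cells made up 63.2% of the line in monoculture and 49.7% in coculture; the part of this share in the lower PIM3 level was not tested. In MM.1S monoculture PIM2 went the other way, with 429 CPM in cells with 0 mitotic UMIs (395 to 466) and 316 CPM in those with at least 2 (258 to 384), 1.36-fold lower (1.10 to 1.69), while in coculture the levels were 268 and 221 CPM with overlapping intervals. The mitotic list itself had 1 gene higher (33.6% over all genes) and 6 lower (13.9%) of 22 in MM.1S cells, with a median of -0.26. In cells of 500 to under 2000 UMIs it had 11 higher and 1 lower (median 0.86). Its direction thus differed with the depth of the cells compared, and nothing is read from these counts. Over all depths MKI67 (1.06), TPX2 (0.48) and CENPE (0.47) were highest in MM.1S cells and HMMR (-1.45), NUSAP1 (-1.24) and CCNB2 (-1.21) lowest. In HS-5 cells CCNB2 (0.54) and UBE2C (0.42) were highest and CENPE (-1.19) and CENPF (-1.16) lowest.

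By the distance of log2 levels over the 4 cell groups, each gene centred on its own mean, the genes most like each member were found among 6506 genes. For PIM2 they were BCHE, a cholinesterase (distance 0.172), the non-coding RNA LINC01229 (0.172) and TNFRSF17, the plasma cell receptor BCMA (0.235), all with at most 2.02 CPM in HS-5 cells. For PIM3 they were SMARCC1, a subunit of a chromatin remodeller (0.0842), MYO5A, a motor protein (0.0914), and RAPGEF1, an exchange factor of a small GTPase (0.109). For PIM1 the nearest were farther off: MT-CO1 (0.365) and MT-CYB (0.475), which are encoded in mitochondria, and NDUFAF3 (0.520), which helps to assemble respiratory complex I. MT-CO1 went from 5758 to 3120 CPM in MM.1S cells and from 924 to 2342 CPM in HS-5 cells, the crossed pattern of PIM1. The share of all mitochondrial UMIs went from 6.82% to 4.05% in MM.1S cells with PIM1, but from 2.79% to 2.23% in HS-5 cells against it, and its part in the PIM1 levels was not tested.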

How the data were processed

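The authors deposited whole-number UMI counts per gene and cell barcode for 3 Drop-seq libraries, without normalization. The submitters' processing notes name Cell Ranger 3.0.2, UMI-tools 1.0.0, STAR 2.5.3a, featureCounts 1.6.4 of Subread, SAMtools 1.9 and GRCh38. The members and gene lists were chosen with earlier results of these data known, among them the STAT3 target list, so they are not independent evidence.

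Cells with at least 200 genes were kept. Coculture cells with under 0.2 HS-5 UMIs among line-specific UMIs were taken as MM.1S, those with over 0.8 as HS-5; line genes differ at least 50-fold (pseudocount 1 CPM), PIM genes left out. Doublets within a line were not removed. The counts of each line were added up within a library and expressed as CPM; 3 counts are worth 0.288, 2.25, 0.488 and 1.21 CPM in MM.1S monoculture, MM.1S coculture, HS-5 monoculture and HS-5 coculture cells. CPM have exact Poisson intervals, ratios exact conditional binomial intervals without pseudocount, and shares exact Clopper-Pearson intervals, all at 95%. UMIs were thinned without replacement.

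The genes named are the 3 members and, from each list, the 3 highest and 3 lowest ratios of each list in MM.1S cells, the 2 highest and 2 lowest in HS-5 cells (mean of at least 10 CPM), and the 3 genes nearest to each member (mean of at least 20 CPM). Of the marker lists those that went against their list are named. STAT3 and IL6 were named after their values were seen. IL10, CD68 and HBB were not analysed here, and 1 gene that the rule names is not reported here. Symbols matched GENCODE release 29 for 97.3% of genes, and promoters come from RefSeq (GRCh38.p14). Steps were tested on simulated data. Alternatives changed the cell limits, scaling, pseudocount, minimum level, mixed-cell limits, line genes, thinning and free RNA. Removal of shared barcodes, of cells with traces of the other line and of the richest cell, the 1000 to under 2000 UMI class a second draw at 1000 UMIs and the STAT3 list without MYC were chosen after seeing the data. Python 3.11.15, numpy 2.4.6, scipy 1.17.1, pandas 2.3.3 and matplotlib 3.10.9 were used.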

Additional observations from a re-analysis of the deposited data

Results flagged for a closer look

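Among the genes named by the rule, 15 had opposite directions in the lines when coculture was compared with monoculture, beyond counting error and, apart from PIM3 in HS-5 cells, past 1.5-fold in both. The rule names genes for high or low ratios or for likeness to a member, so nothing is read from this count. MT-CO1, MT-CYB, NDUFAF3 and SMARCC1 were named as nearest to PIM1 or PIM3, so their opposite directions follow from that choice. The log2 ratio in MM.1S cells minus that in HS-5 cells was -2.764 for PIM1 and 1.657 for PIM3. Among the other genes named, the difference was negative, as for PIM1, for JCHAIN (-4.556), MT-CYB (-2.309), MT-CO1 (-2.225), NDUFAF3 (-1.832) and EIF4EBP1 (-1.213). It was positive, as for PIM3, for HSP90AA1 (3.351), CDC25A (3.136), BCL2L1 (2.409), DAPK3 (1.836), MKI67 (1.749), SMARCC1 (1.743), BIRC3 (1.707) and KLF6 (1.566). DAPK3 had a log2 ratio of 0.72 in MM.1S cells over all depths, but -0.11 in cells of 1000 to under 2000 UMIs. With 1 library per condition none of these differences was tested. JCHAIN, the joining chain of immunoglobulins, has a log2 ratio of 3.87 in HS-5 cells that became -0.98 after free RNA was subtracted, while that of PIM1 in HS-5 cells stayed at 1.61.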

How the results depend on the processing

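No ratio of a PIM member that was called changed its sign under any alternative run; the range was -1.39 to -0.71 for PIM1, -1.06 to -0.47 for PIM2 and 0.64 to 1.18 for PIM3 in MM.1S cells, and 1.15 to 1.74 for PIM1 and -0.79 to -0.51 for PIM3 in HS-5 cells. Of 107 alternative values, 100 stayed within the counting interval. PIM2 in MM.1S cells moved to -0.89 with median-of-ratios factors, -0.88 relative to all genes, -0.81 with at least 500 genes per cell, -0.91 in cells of 500 to under 2000 UMIs, -1.06 in cells of 1000 to under 2000 UMIs and -0.47 in coculture cells without traces of HS-5, and PIM3 to 0.64 in cells of 1000 to under 2000 UMIs; the class of 1000 to under 2000 UMIs and the cells without traces were chosen after seeing the data, and the cause was not tested.

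Of the other STAT3 targets in MM.1S cells, 6 were called higher with a minimum of 50 CPM, which leaves fewer genes, and 3 lower with median-of-ratios factors and 2 in cells of 500 to under 2000 UMIs, and their median ranged from 1.28 to 2.02. In HS-5 cells 3 were higher with equal weight per cell and in cells of 500 to under 2000 UMIs, 2 without a minimum level and 0 with a pseudocount of 5, a line gene limit of 20-fold, a minimum of 50 CPM or the limits of 2500 genes and 5% mitochondrial UMIs; these last limits gave 5 lower, and 50 CPM gave 0. The shares of cells moved with depth. At 1000 UMIs per cell, PIM1, PIM2 and PIM3 were seen in 4.63%, 32.3% and 4.96% of MM.1S cells in monoculture and 2.64%, 19.8% and 8.71% in coculture, PIM2 and PIM3 in 0.555% and 6.38% of HS-5 cells in monoculture and PIM1 and PIM3 in 1.90% and 4.10% in coculture. Without thinning, the moved shares were 11.4%, 54.0% and 11.7%, then 17.1% for PIM2 and 8.01% for PIM3, then 0.804%, 0.589% and 8.82%, and 1.90% for PIM1 and 4.61% for PIM3, in the same order of groups. Another random draw gave 18.8% for PIM2 in MM.1S monoculture.

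The counts of the other gene lists moved as follows. Counts over all genes moved under many of the same settings, as given below, so nothing is read from the movement of any list. In MM.1S cells the NF-κB targets had 2 lower with median-of-ratios factors, a total without ribosomal protein and mitochondrial genes, at least 500 genes per cell or the limits of 2500 genes and 5% mitochondrial UMIs; the mitotic genes had 5 higher and 3 lower with at least 500 genes per cell, 11 and 1 (median 0.86) in cells of 500 to under 2000 UMIs, and 2 higher under the limits of 2500 genes and 5%. A minimum of 50 CPM, which leaves fewer genes, gave 2 higher and 0 lower NF-κB targets (median 1.91) and 3 higher substrates and 3 higher kinases, and no minimum gave 10 higher and 3 lower JAK-STAT genes, 5 lower short-lived mRNAs, 1 lower kinase and 2 higher mitotic genes. In HS-5 cells equal weight per cell gave 2 higher and 3 lower JAK-STAT genes, 2 and 2 NF-κB targets, 4 higher substrates, 4 higher mitotic genes and 1 higher short-lived mRNA. Cells of 500 to under 2000 UMIs gave 2 higher JAK-STAT genes, 3 higher and 2 lower NF-κB targets, 5 higher substrates, 2 higher kinases, 1 higher short-lived mRNA and 5 higher and 8 lower mitotic genes. Over all genes 1462 were higher and 1456 lower in these cells, against 696 and 881 over all depths. The limits of 2500 genes and 5% gave 3 lower NF-κB targets, 5 lower short-lived mRNAs, 1 higher kinase and 5 higher mitotic genes. A minimum of 50 CPM gave 0 higher and 0 lower JAK-STAT genes, 0 lower NF-κB targets, 1 lower substrate and 1 lower kinase, and no minimum 3 and 3 JAK-STAT genes, 2 and 3 NF-κB targets and 1 higher short-lived mRNA. JAK-STAT genes also had 0 higher with a pseudocount of 5 or line genes of 20-fold and 2 lower after free RNA was subtracted, NF-κB targets 2 lower with a pseudocount of 0.5 or the total without ribosomal protein and mitochondrial genes, and kinases 2 lower with median-of-ratios factors or a pseudocount of 5. At 1000 UMIs per cell the PIM2 ratio by STAT3 target UMIs moved to 1.37 in 1 draw.

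Of 2312 values of 136 ratios of other named genes, 9 turned a call around. In MM.1S cells CXCL8 turned to -0.034 after free RNA was subtracted and -2.98 without traces of HS-5, MMP1 to -0.13 under both, and CCNB2, NUSAP1 and DAPK3 to 0.45, 0.30 and -0.11 in cells of 1000 to under 2000 UMIs; JCHAIN in HS-5 cells turned to -0.98 under both settings for the other line. Over all genes, 1674 were lower in MM.1S cells with a total without ribosomal protein and mitochondrial genes and 1697 with median-of-ratios factors. In HS-5 cells 1209 were higher with equal weight per cell, 1106 higher and 1370 lower under the limits of 2500 genes and 5% mitochondrial UMIs, and 1462 and 1456 in cells of 500 to under 2000 UMIs. A minimum of 50 CPM gave 921 higher and 410 lower in MM.1S cells and 329 and 354 in HS-5 cells, and no minimum 9470 and 5767, and 4250 and 4855. PIM1 rests on 30 UMIs in MM.1S cells in coculture and in HS-5 monoculture cells, and each condition is 1 library. No paired analysis was possible because each condition is 1 library and no test was made; no replicate could be left out for the same reason.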

Other observations

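PIM1 in HS-5 cells was also seen by the STAT3 target UMIs of the cell, at 500 UMIs per cell. In monoculture it stood at 23.1 CPM in 519 cells with 0 such UMIs (8.49 to 50.3, 6 UMIs), 6.32 CPM in 949 cells with 1 (1.30 to 18.5, 3 UMIs) and 3.91 CPM in 2047 cells with at least 2 (4 UMIs). In coculture it had 0 UMIs in 337 cells with 0 STAT3 target UMIs, which allows up to 17.8 CPM at 3 UMIs (0 to 21.9 by the Poisson interval), 18.0 CPM in 556 cells with 1 (5.84 to 42.0, 5 UMIs) and 17.6 CPM in 909 cells with at least 2 (7.60 to 34.7, 8 UMIs). The CPM intervals overlapped between the classes of each culture, in monoculture only just for the classes of 0 and at least 2. An interval of the ratio between these classes was not taken, so nothing is read from this overlap.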
